A study of Canis lupus familiaris with 28 samples.

Results

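Histiocytic sarcoma (HS) of the lung was compared with HS of the liver in Bernese Mountain Dogs. The 8 tumors were chosen by their labels, namely disease state HS without the hemophagocytic form and tissue Lung (5 tumors: HS27, HS35, HS47, HS48 and HS52) or Liver (3 tumors: HS33, HS36 and HS50), and they are 8 of the 28 samples of the series. No measured value entered the choice. The series holds 18 tumors, of which 15 are labelled HS and 3 labelled hemophagocytic HS (HHS). It also holds normal blood of Bernese Mountain Dogs, normal spleen, lung and liver of German Shepherd Dogs, and cultured cells. Beside the 8 tumors, 1 normal lung and 1 normal liver of German Shepherd Dogs were used to mark genes that differ between the organs themselves, and 1 HHS tumor of the lung and 1 of the liver were set alongside. The dogs' ages and treatments and whether a tumor arose in the labelled organ or had spread there are not given in the labels used here. Normal organs and tumors differ in breed as well as in disease, and each normal organ is 1 library with no replicate. The study left 1 control sample out of its own comparisons as an outlier, and its text does not say which. Every value below that is set against a normal organ rests on that organ's single library.

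HS is a cancer of histiocytes, which comprise macrophages and dendritic cells, and it forms masses in the spleen, lung, liver, joints and other sites. A piece of such a mass also holds cells of the host organ, vessels, stroma and lymphocytes. In lung these are mainly alveolar and airway epithelium and a dense capillary bed, and in liver the hepatocytes, whose secreted plasma proteins and metabolic enzymes are made at very high levels. Histiocytes present peptides to T cells on class II molecules of the major histocompatibility complex (MHC), while class I molecules and the peptide transporter present peptides from inside the cell. In bulk RNA, fewer cells of a type and less RNA per cell cannot be told apart.

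Total RNA depleted of ribosomal and globin RNA was sequenced from frozen tumor tissue that the study estimated by histopathology to be mostly tumor. Between 124147248 and 171815073 reads were counted on genes in the 8 tumors, so that a level of 3 counts corresponds to 0.0157 to 0.0295 CPM (counts scaled to a fixed library size). CPM values are scaled by trimmed mean of M-values (TMM) factors over the 24 tissue and blood libraries. The summed level of phagocyte genes was higher in each tumor than in normal lung and normal liver. The 14 listed here summed to 1628 to 3783 CPM in lung and 1916 to 3386 in liver tumors, against 808 in normal lung and 342 in normal liver. Normal spleen had 1778 CPM, within the range of the tumors, and normal blood 9870 to 14806. *LYZ*, the lysozyme gene, ranged from 236 CPM in HS35 to 2807 in HS47, with 318 in normal lung and 119 in normal liver. The libraries HS33, HS50 and HS47 stood apart on the gene lists described here. HS33 had the highest level of 11 of 18 hepatocyte genes among the 8 tumors, HS50 the highest level of 8 of 10 lymphocyte genes, and HS47 the lowest level of 10 of 15 antigen processing genes. All 8 tumors and normal lung, liver and spleen carry the same flow cell name, and the normal blood libraries carry another.

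The tumors did not fall into tight groups by site. Over the 500 most variable genes, the distance between 2 lung tumors was 79.9 to 117, with a median of 102 over 10 pairs. The distance between 2 liver tumors was 97.2 to 118, with a median of 111 over 3 pairs, and between a lung and a liver tumor it was 101 to 125, with a median of 107 over 15 pairs. Among the 8 tumors, 6 had a tumor of the same site as nearest, while HS48 of the lung was nearest to HS36 and HS50 of the liver nearest to HS47.

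No gene passed the test of lung against liver tumors. The test asked for an absolute log2 fold change (log2FC, lung minus liver throughout) above 1.5 and a Benjamini-Hochberg adjusted p under 0.05 by edgeR's quasi-likelihood test. Of 17889 genes tested, 0 (0%) were called, and the smallest adjusted p was 0.875. Before adjustment, 784 genes (4.38%) had a p under 0.05, of which 445 were higher in lung and 339 in liver tumors, where 894.5 are expected if no gene differs. DESeq2 on the same genes called 102 (0.57%), 79 (0.442%) higher in lung and 23 (0.129%) in liver tumors, so the count of calls rests on the test. Leaving out any 1 of the 8 tumors gave 0 calls by edgeR, with a smallest adjusted p of 0.0733 without HS47 and of 0.187 to 1 without each of the other tumors. In 470 genes (2.63%) the 5 lung and 3 liver tumors did not overlap. Of these, 223 (1.25%) had all lung tumors higher and 247 (1.38%) all liver tumors higher. With groups of 5 and 3, some genes separate fully even if none differs between the sites. That share was not computed, so a lack of overlap alone does not show a site difference. Names were at hand for 974 of the tested genes. Of these, 6 (0.616%) had all lung tumors higher, 5 (0.513%) all liver tumors higher, and DESeq2 called 6.

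The named genes with the smallest p on the lung side were *GALR1*, *TSPAN8*, *TBC1D30*, *LGR5* and *MOXD1*, none of which passed the test (edgeR adjusted p = 1 for each). DESeq2 called *TSPAN8* (adjusted p = 0.000106), *LGR5* (adjusted p = 0.0484) and *MOXD1*. *TSPAN8*, a tetraspanin of epithelial cell surfaces, had 58.2 CPM in HS35, 65.2 in HS47 and 14.7 in HS52, but 0.295 in HS27 and 0.611 in HS48. In the liver tumors *TSPAN8* had 0.317 CPM in HS33, 0.0409 in HS36 and 0.287 in HS50. The lung tumors were thus split, with HS27 below the highest liver tumor, and the log2FC of *TSPAN8* was 7.02 ± 1.98 (SE). Normal lung had 993 CPM of *TSPAN8* and normal liver 4.15.

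*MOXD1*, a monooxygenase related to dopamine beta-hydroxylase, did not overlap between the sites. It had 547 CPM in HS47, 245 in HS48, 28.1 in HS35, 6.7 in HS27 and 6.33 in HS52, against 5.09 in HS33, 3.84 in HS36 and 0.219 in HS50. Its log2FC was 5.76 ± 1.86 (SE). The normal organs went the opposite way, with 2.28 CPM in normal lung and 383 in normal liver, and the HHS tumor of the lung had 557 CPM against 8.68 in the HHS tumor of the liver. The DESeq2 adjusted p of *MOXD1* was 0.00391. Without HS47 its log2FC was 4.56.

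*TBC1D30*, which encodes an activator of a Rab GTPase, did not overlap either, at lower levels. The lung tumors had 3.3 CPM (HS27), 16.6 (HS35), 8.59 (HS47), 6.46 (HS48) and 3.83 (HS52), and the liver tumors 2.23 (HS33), 1.42 (HS36) and 1.72 (HS50). Its log2FC was 2.14 ± 0.67 (SE), and normal lung also exceeded normal liver, at 5.69 against 1.07 CPM. The receptors *LGR5*, a Wnt pathway receptor of epithelial stem cells, and *GALR1*, a receptor for galanin, were near the limit of detection in the liver tumors, with 1 count each over all 3 libraries. The lung tumors held 370 counts of *LGR5*, a ratio of 205 with a 95% counting interval of 36.6 to 8135. They held 176 counts of *GALR1*, a ratio of 97.7 with an interval of 17.3 to 3881. Both intervals cover counting error only and not the spread between tumors. The highest lung tumor had only 1.72 CPM of *LGR5* (HS47) and 0.491 CPM of *GALR1* (HS52), and HS27 had no count of *LGR5*. With the HHS tumors added, the log2FC of *GALR1* went from 6.15 to 1.88. *ADAMTS19*, a secreted metalloprotease, was a further DESeq2 call (adjusted p = 0.00264; edgeR adjusted p = 1). It had 28.8 CPM in HS47 and 16.1 in HS48, 0.138 to 1.4 in the other lung tumors and 0.00684 to 0.286 in the liver tumors.

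The named genes with the smallest p on the liver side were *NMBR*, *LEAP2*, *RIMS2*, *RASEF* and *TAP2*, and again none passed (edgeR adjusted p = 1 for each). *TAP2*, a subunit of the transporter that loads peptides for class I molecules, had 126 CPM in HS33, 181 in HS36 and 206 in HS50. The lung tumors had 66.4 CPM of *TAP2* in HS27, 81.1 in HS35, 46.8 in HS47, 115 in HS48 and 60.7 in HS52. Every liver tumor was above every lung tumor, the means being 7.39 ± 0.37 (SD, n = 3) and 6.14 ± 0.48 (SD, n = 5) on the log2 CPM scale. The log2FC was -1.18 ± 0.35 (SE) and lay between -1.41 and -1.03 under all other fits. The normal organs were alike, with 66.4 CPM in lung and 67.7 in liver, and the HHS tumors had 42.6 CPM in lung and 175 in liver.

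*RASEF*, a member of the Rab family with calcium-binding EF hands, also did not overlap. It had 36.9 CPM in HS33, 4.07 in HS36 and 8.4 in HS50, against 0.266 in HS27, 1.03 in HS35, 0.558 in HS47, 0.00746 in HS48 and 2.45 in HS52. The log2FC was -4.21 ± 1.25 (SE), and DESeq2 called it (adjusted p = 0.0438). Here the other libraries went the opposite way, with 37.1 CPM in normal lung against 2.94 in normal liver, and 36.3 CPM in the HHS tumor of the lung against 0 in that of the liver. With both HHS tumors added to their sites, the log2FC of *RASEF* was -0.88.

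The remaining 3 rested on 1 or 2 tumors. *RIMS2*, a scaffold of the presynaptic active zone, had 17.9 CPM in HS33 and 14.5 in HS50 but 0.09 in HS36, within the 0 to 0.469 CPM of the lung tumors, and DESeq2 called it (adjusted p = 0.0127). *NMBR*, the receptor for neuromedin B, had 13.9 CPM in HS50, with 0.199 and 0.205 in HS33 and HS36 and 0 to 0.104 in the lung tumors, so that the sites did not overlap. Its log2FC was -6.73 ± 1.69 (SE), and -2.18 without HS50. *LEAP2*, a peptide hormone and antimicrobial peptide made mainly by liver, had 18.1 CPM in HS33 and 0.0437 to 0.194 in the other 7 tumors, and its log2FC was -5.50 with HS33 and 0.57 without it.

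**Figure D1:**
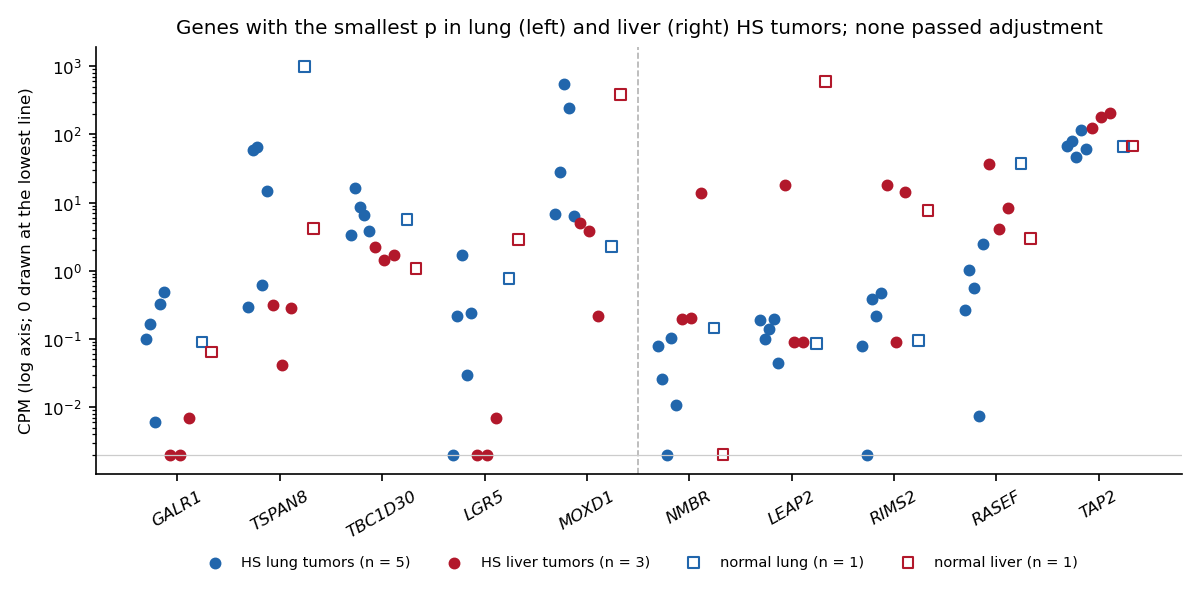
Level in CPM (log axis) of the 5 named genes with the smallest p in each direction, with 1 filled point per tumor (blue lung, n = 5; red liver, n = 3) and open squares for the normal lung and the normal liver. Lung and liver tumors do not overlap for *TBC1D30*, *MOXD1*, *NMBR*, *RASEF* and *TAP2*, while for *LEAP2* only HS33, at 18.1 CPM, is above the lung tumors, and no gene passed adjustment.

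Identifiers without a name came closest to the threshold. ENSCAFG00000040277 had 3.33 CPM in HS33, 0.998 in HS36 and 1.57 in HS50, and no count in HS27, HS35, HS48 and HS52, while HS47 had 0.0184 CPM. The lung tumors held 3 counts in all against 888 in the liver tumors, a ratio of 533 with a 95% counting interval of 182 to 2590. This interval also leaves out the spread between tumors. ENSCAFG00000013822 had 2.69, 3.47, 3.99, 4.58 and 0.982 CPM in HS27, HS35, HS47, HS48 and HS52, against 0.0622, 0.00818 and 0.0478 in HS33, HS36 and HS50. Its log2FC was 6.29 ± 1.01 (SE). For both, all tumors of one site were above all tumors of the other and the edgeR adjusted p was 0.875. They were also called by DESeq2 (adjusted p = 2.06e-09 for ENSCAFG00000040277 and 1.2e-13 for ENSCAFG00000013822).

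To see which differences follow the host organ, genes were sorted by their log2 CPM in normal lung minus normal liver. The tumors differed most where the organs did. The 657 genes higher in normal lung by over 5 had a median log2FC of 1.02 in the tumors, and 76.1% of them were higher in lung tumors, against 51.9% of all genes. Among them, 93 (14.2%) had an unadjusted p under 0.05 and were higher in lung tumors, and 7 (1.07%) were higher in liver tumors. The background over all genes is 2.49% and 1.9%. Of the 406 genes higher in normal liver by over 5, 66 (16.3%) had such a p and were higher in liver tumors and 10 (2.46%) in lung tumors, with a median log2FC of -0.43. The 10746 genes within 1.5 between the organs had a median of -0.03, with 155 (1.44%) and 160 (1.49%) genes in the 2 directions. Of DESeq2's calls, 49 of the 79 genes higher in lung tumors (62%) and 8 of the 23 higher in liver tumors (34.8%) differed by over 1.5 the same way between the normal organs, against 31.9% and 13.1% of all genes tested in those directions. Of the 45 DESeq2 calls that did not follow the organs, 26 were above the matching normal organ in every tumor of the higher site. The same share over all genes was not computed, and these calls were picked for being high at that site. The count of 26 is thus a description and does not show a site difference.

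The liver side of this pattern rested on HS33, and its counts moved with the test and the filter. Without HS33, 13 genes of the liver class had a p under 0.05 and were higher in liver tumors, 16 were higher in lung tumors, and the median log2FC was 0.30. DESeq2 gave an unadjusted p under 0.05 to 30 genes of this class that were higher in liver and 17 that were higher in lung tumors. With a filter of 1 CPM in 3 libraries, 208 genes of the class were left, 15 of them with such a p and higher in liver and 7 higher in lung tumors, and the median was -0.01. On the lung side DESeq2 gave such a p to 135 genes higher in lung and 5 higher in liver tumors. The edgeR median stayed between 0.67 and 1.46 when any tumor was left out, and without HS52 the lung-higher count was 53 of 576 genes.

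**Figure D2:**
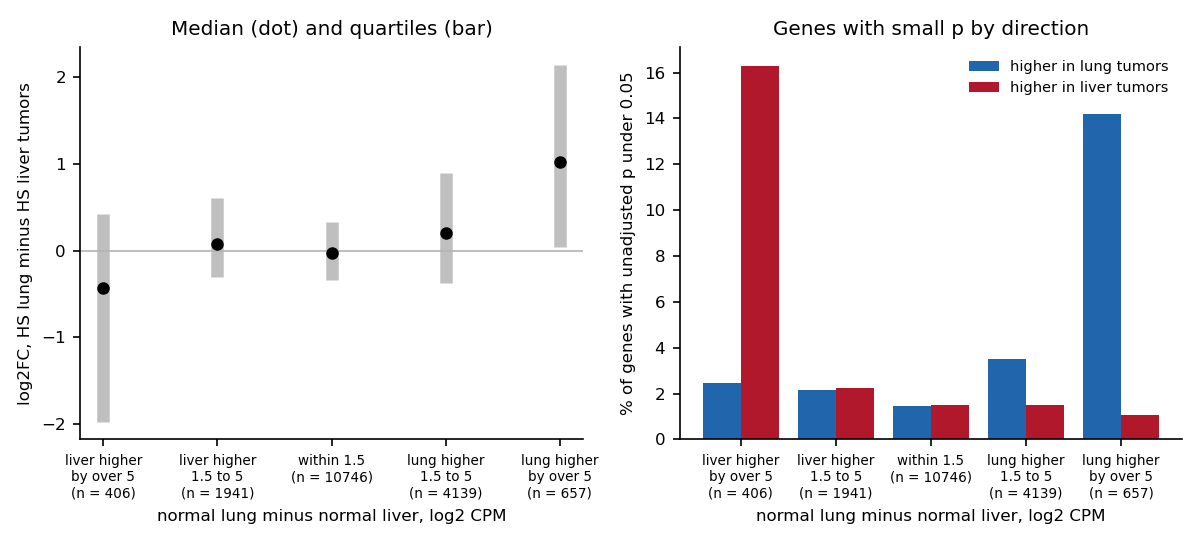
Genes grouped by their log2 CPM difference between normal lung and normal liver (x axis). Left, median and quartiles of the log2FC of HS lung minus HS liver tumors; right, percent of genes with an unadjusted edgeR p under 0.05 in each direction. The median goes from -0.43 in genes of normal liver to 1.02 in genes of normal lung, and 16.3% and 14.2% of these genes have a small p on the side of their organ.

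Signal of liver parenchyma was low in all 3 liver tumors and highest in HS33. The 18 hepatocyte genes listed here cover plasma proteins and enzymes of amino acid, urea, steroid and drug metabolism. Of the 16 tested, 0 passed, 12 were higher in liver tumors and 4 in lung tumors, and the median log2FC was -0.21 (0.62 without HS33) against 0.03 over all genes. Of these, 3 had an unadjusted p under 0.05, *PLG* and *LEAP2* among them, all higher in liver tumors, where 1.9% of all genes had such a p. *PLG*, which encodes plasminogen, had 67.5 CPM in HS33, 0.859 in HS36 and 0.041 in HS50. In the lung tumors *PLG* had 0.59 CPM in HS27 and at most 0.068 in the other 4. HS33 was far above the highest lung tumor and HS36 barely above it, and the level in HS33 was 0.501% of the 13479 CPM in normal liver. *ARG1*, the last enzyme of the urea cycle, had 7.83 CPM in HS33, 2.8 in HS36 and 0.731 in HS50, with 1.1 to 1.6 in the lung tumors and 4250 in normal liver. *LECT2* and *INHBC*, 2 secreted liver proteins, were too low to be tested, at 3.33 and 0.759 CPM in HS33.

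*FBP1*, the gluconeogenic enzyme fructose-bisphosphatase, did not follow the other hepatocyte genes. The lung tumors had 1537 CPM in HS27, 430 in HS35, 444 in HS47, 266 in HS48 and 1156 in HS52. The liver tumors had 43.6 CPM in HS33, 416 in HS36 and 311 in HS50. HS33, with the most hepatocyte signal otherwise, was thus the lowest for *FBP1*, and the sites overlapped (log2FC 1.61 ± 0.81 (SE), edgeR adjusted p = 1). Normal liver had 915 CPM and normal lung 9.46. Without *FBP1* the hepatocyte genes summed to 195 CPM in HS33, 34.8 in HS36 and 13.7 in HS50, against 22.8 to 58.2 in the lung tumors and 32262 in normal liver.

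A wider set gave the same order. It held 221 genes with at least 100 CPM in normal liver and at most 1% of that level in the normal lung, spleen and blood, a rule set after the tumor values had been seen. Their median level was 0.294% of that in normal liver in HS33, 0.01% in HS36 and 0.002% in HS50, against 0.003 to 0.014% in the lung tumors and 0.003% in the HHS tumor of the liver. HS36 and HS50 were thus within or below the range of the lung tumors.

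Lung epithelium genes split the lung tumors 3 to 2. Of 11 listed genes 7 were tested, 6 of them higher in lung tumors, 0 passed, and the median log2FC was 3.39. It was -0.04 without HS52 and 1.89 without HS47. Of the 7, 3 had an unadjusted edgeR p under 0.05 and 1 (*MAL2*) did not overlap, all higher in lung tumors. Over all genes these shares were 2.49% and 1.25% on the lung side. The list was chosen with earlier results of these data known, so these counts do not test a lean. *AGER*, a receptor abundant on type I alveolar cells, had 47.3 CPM in HS35, 48.7 in HS47 and 13.5 in HS52, with 6.14 in HS48 and 3.52 in HS27. The liver tumors had 6.73, 3.67 and 4.24 CPM of *AGER* in HS33, HS36 and HS50, so that HS27 and HS48 lay within or below their range. *ROS1*, a receptor tyrosine kinase, had 3.13, 1.75 and 1.11 CPM in HS35, HS47 and HS52 and no count in the other 2 lung tumors or in any liver tumor. Over the group its level was at least 201-fold higher in the lung tumors, against the level that 3 counts in all liver libraries would give. *MAL2*, a transport protein of polarised epithelium, did not overlap, at 0.0393 to 1.02 CPM in lung and 0 to 0.0373 CPM in liver tumors. The lowest lung and the highest liver value lie close to the 0.0157 to 0.0295 CPM that 3 counts give. This lack of overlap is therefore not resolved by the counts. Normal lung (15.6 CPM) and normal liver (12 CPM) both had far more. *SLC44A4*, a choline transporter of epithelia, reached 13 CPM in HS52 and stayed at 0.082 to 0.38 in the other 7 tumors. *DDR1*, a collagen receptor of epithelia, was at 3.7 to 11 CPM in lung and 2.9 to 6.28 in liver tumors (log2FC 0.35, 95% interval -0.90 to 1.61).

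The wider lung set showed the same split. Over 30 genes with at least 20 CPM in normal lung and at most 1% of that level in the normal liver, spleen and blood, the median level was 1.15% of normal lung in HS35, 0.802% in HS47 and 1.39% in HS52. It was 0% in HS27 and 0.008% in HS48, beside 0.001 to 0.004% in the liver tumors and 0.058% in the HHS tumor of the lung. HS27 and HS48, labelled Lung, were thus close to the liver tumors on these genes. The motile cilia genes of airway epithelium did not separate the sites when all tumors were used. All 13 were tested, 6 higher in lung and 7 in liver tumors, with a median log2FC of -0.02 (1.55 without HS50) and none with an unadjusted p under 0.05. *RSPH4A*, a radial spoke protein of motile cilia, had 0.0295 to 2.09 CPM in lung and 0.123 to 0.342 CPM in liver tumors, with HS52 the highest.

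**Figure D3:**
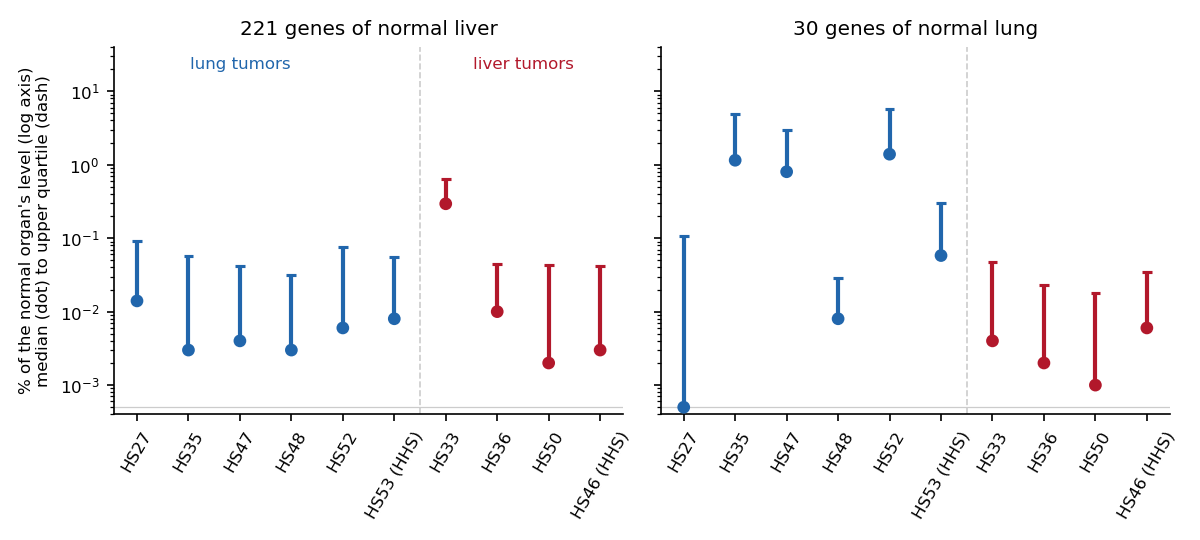
Level of 221 liver genes (left) and 30 lung genes (right) in each tumor as percent of the level in the matching normal organ, on a log axis, with the median as a dot and the upper quartile as a dash (a median of 0 is drawn on the lowest line). HS33 alone stands above the other tumors for liver genes (0.294%), and HS35, HS47 and HS52 for lung genes (0.802 to 1.39%).

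Genes of fibroblasts and the extracellular matrix leaned to the lung tumors. Of 18 listed genes 17 were tested, 14 were higher in lung and 3 in liver tumors, 0 passed, and the median log2FC was 1.5 against 0.03 over all genes. It was 0.83 without HS27 and 0.63 with the HHS tumors added. Of these, 4 (*TNXB*, *COL23A1*, *P4HA2* and *MOXD1*) had an unadjusted p under 0.05 and 3 did not overlap (*MOXD1*, *ADAMTS2* and *P4HA2*), all higher in lung tumors. On the lung side, 2.49% of all genes had such a p and 1.25% did not overlap. This list, like the others, was chosen with earlier results of these data known, so its counts beside these shares do not test a lean. *P4HA2*, a prolyl hydroxylase that modifies collagen, had 94.2, 76.9, 106, 113 and 105 CPM in HS27, HS35, HS47, HS48 and HS52, and 60.3, 67.1 and 65.8 CPM in HS33, HS36 and HS50. The log2FC was small at 0.65 ± 0.28 (SE), with an interval of 0.02 to 1.27. *ADAMTS2*, which cleaves procollagen, had 10.9, 14, 9.44, 9.4 and 10.5 CPM in the lung tumors in that order and 2.47, 6.16 and 8.78 CPM in the liver tumors (log2FC 0.93 ± 0.50 (SE)). Both had all lung tumors above all liver tumors, and both went the opposite way in the HHS tumors, with 38.7 CPM of *P4HA2* in lung and 103 in liver and 11.8 CPM of *ADAMTS2* in lung and 54.5 in liver.

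Single matrix genes were uneven among the lung tumors. *FBLN1*, a fibulin of elastic matrix, had 377 CPM in HS27, 194 in HS35, 109 in HS47 and 86.3 in HS52 but 0.589 in HS48, against 48.9, 59 and 19.4 CPM in HS33, HS36 and HS50. HS48 was lower than all liver tumors, and it had the lowest level of 9 of the 18 matrix genes among the 8 tumors. *TNXB*, tenascin X, had 17.5 CPM in HS27, 7.01 in HS35, 3.08 in HS47, 1.96 in HS48 and 1.66 in HS52, against 2.21, 0.589 and 1.09 in HS33, HS36 and HS50, and its log2FC was 2.30 ± 0.95 (SE) with all tumors and 1.39 without HS27. The matrix genes summed to 317 to 937 CPM in lung and 120 to 289 in liver tumors, without overlap. Without *MOXD1* the sums were 162 to 806 and 120 to 285 and overlapped. The summed level was 571 CPM in normal lung and 941 in normal liver.

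Most antigen processing genes leaned to the liver tumors, while their summed level did not separate the sites. The list summed to 3795 (HS47) to 23357 CPM (HS27) in lung tumors and 19335 to 21512 in liver tumors. Of 15 listed genes 14 were tested, 12 were higher in liver and 2 in lung tumors, 0 passed, and the median log2FC was -0.59, or -0.11 without HS50 and -0.94 without HS27. *TAP2*, described above, alone had an unadjusted p under 0.05 and no overlap (1.9% and 1.38% of all genes on the liver side). All 7 tested class II genes were higher in liver tumors, with log2FC from -1.80 to -0.46, a median of -1.03 and unadjusted edgeR p from 0.0767 to 0.512. *DLA-DRA*, the class II alpha chain gene, had 7239 CPM in HS33, 4551 in HS36 and 7865 in HS50. In the lung tumors it had 3090, 3238, 1009, 5704 and 3447 CPM in HS27, HS35, HS47, HS48 and HS52. HS48 lay among the liver tumors, HS47 was the lowest, and the log2FC was -0.96 with a 95% interval of -2.15 to 0.23. *DLA-DQA1*, a second alpha chain, had 302 to 1442 CPM in lung tumors and 2512, 695 and 2734 in HS33, HS36 and HS50. *DLA-DOB*, a modulator of peptide exchange on class II, had 33.4 CPM in HS50, 6.31 in HS33 and 1.35 in HS36, with 3.33 to 7.96 in the lung tumors. The median of the class II genes was -0.69 without HS50 and -0.80 without HS47. The 7 class I and peptide loading genes had a median log2FC of -0.09, with *DLA88* at 166 to 670 CPM in lung and 59.6 to 524 in liver tumors. Class I and class II genes have near-identical copies that may share reads, so levels of single MHC genes are uncertain. The HHS tumors, each 1 library, had 224 CPM of *DLA-DRA* in lung and 5623 in liver.

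Lymphocyte genes were highest in 1 liver tumor. Of 10 listed T, NK and B cell genes 9 were tested, all 9 were higher in liver tumors, 0 passed, and the median log2FC was -1.33. *IL2RB*, a chain of the interleukin 2 and 15 receptors, had 158 CPM in HS50, 9.92 in HS33 and 2.14 in HS36, against 4.7 to 37.2 in the lung tumors. *IFNG*, interferon gamma, had 13.9 CPM in HS50, 1.57 in HS33 and 0.491 in HS36, and 0.0689 to 4.44 in the lung tumors. *CD226*, an activating receptor, had 19.4 CPM in HS50 and 1.14 and 1.1 in the other liver tumors, with 0.59 to 5.67 in the lung tumors. *TCF7*, a transcription factor of T cells, was the member with an unadjusted p under 0.05, with 6.98 CPM in HS50 and 0.0573 to 0.773 in the other 7. HS33 and HS36 were within or below the range of the lung tumors for each of these 4 genes. Without HS50 the median log2FC of the list was 0.35, and that of *IL2RB* was 1.88. The list summed to 332 CPM in HS50, 94.5 to 141 in the other liver tumors and 74.6 to 120 in the lung tumors. Without *TAGAP*, a member of the list, the sums were 235 CPM in HS50, 20.6 in HS33 and 24.2 in HS36. The lung tumors then had 12.7 to 55.4 CPM, so HS33 and HS36 lay within their range. Part of the antigen processing values moved with it, *DLA-DOA* and *DLA-DOB* being highest in HS50 (16.5 and 33.4 CPM); the part of lymphocytes in those values was not tested.

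**Figure D4:**
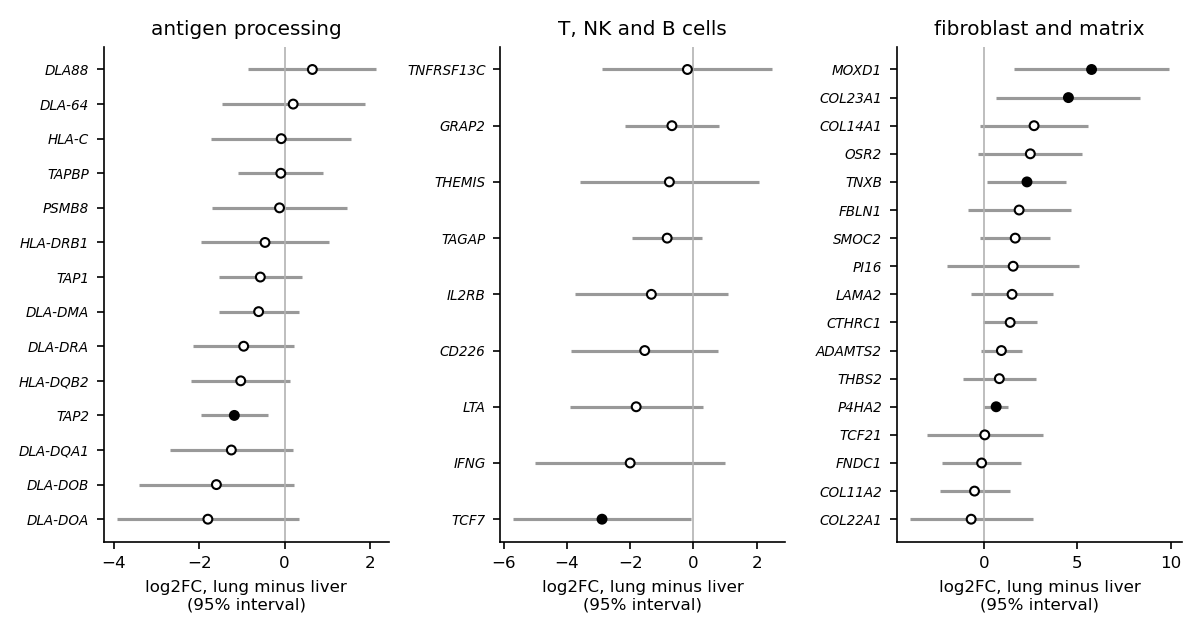
log2FC (lung minus liver) with its 95% interval for the tested antigen processing, lymphocyte and matrix genes, filled where the unadjusted edgeR p was under 0.05. Most antigen processing (12 of 14) and all 9 lymphocyte genes lie left of 0 and 14 of 17 matrix genes right of 0, while most intervals include 0.

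Mononuclear phagocyte genes, those of the tumor's own lineage, had a higher summed level at both sites than in normal lung and normal liver. All 14 were tested, 11 were higher in lung and 3 in liver tumors, none had an unadjusted p under 0.05, and the median log2FC was 0.52 (0.30 without HS33, 0.80 without HS50 and 0.27 with the HHS tumors added). *CYTH4*, a guanine exchange factor of blood cells, had 122 to 383 CPM in lung and 123 to 228 in liver tumors. *CSF2RB*, the shared receptor chain for GM-CSF, had 92.2 to 411 and 73 to 204 CPM. *FGD2*, an exchange factor of macrophages and dendritic cells, ranged from 13.6 CPM in HS47 to 341 in HS27 among the lung tumors alone, beside 43.8 to 146 in the liver tumors. *DCSTAMP*, a fusion protein of dendritic cells and osteoclasts, ranged from 0.207 to 15 CPM in lung and from 0.229 to 13 in liver tumors.

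Cell cycle genes differed little. All 27 were tested, 22 were higher in liver and 5 in lung tumors, none had an unadjusted p under 0.05, and the log2FC ran from -0.72 to 0.50 with a median of -0.24 (-0.11 without HS27 and -0.06 with the HHS tumors added). *CDK4*, the kinase of G1 phase, had 145 to 227 CPM in lung and 166 to 340 in liver tumors, with a log2FC of -0.36 and a 95% interval of -1.10 to 0.38. *KIF20A*, a kinesin of mitosis, had 4.74 CPM in HS27 and 26.7 to 46.4 in the other lung tumors, beside 42, 9.96 and 31.7 in HS33, HS36 and HS50. HS27 had the lowest level of 14 of the 27 genes. The list summed to 927 to 1476 CPM in lung and 1558 to 1705 CPM in liver tumors, which did not overlap. The normal organs had 650 (lung) and 565 (liver) CPM, and in the HHS tumors the order was the opposite, 1276 CPM in lung and 885 in liver.

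The remaining lists showed no member with an unadjusted p under 0.05. All 6 endothelial genes were higher in lung tumors, with a median log2FC of 0.57 (1.49 without HS50, 0.19 without HS33 and 0.20 with the HHS tumors added) and sums of 43.7 to 93.8 CPM against 40.6 to 88 in liver tumors and 971 in normal lung. *FLT4*, the receptor of lymphatic vessels, had 5.25 to 14.4 CPM in lung and 1.56 to 6.53 in liver tumors. Of 7 immediate early genes, which respond to growth signals and tissue handling within minutes, 5 were higher in liver and 2 in lung tumors, with a median of -0.24 (0.16 without HS36 and -0.56 without HS33). *EGR1*, a transcription factor among them, had 25 to 71.7 CPM in lung and 14.3 to 101 CPM in liver tumors. Of 4 red cell and platelet genes 2 were tested, and the list summed to 0.466 to 1.96 CPM in the 8 tumors.

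**Figure D5:**
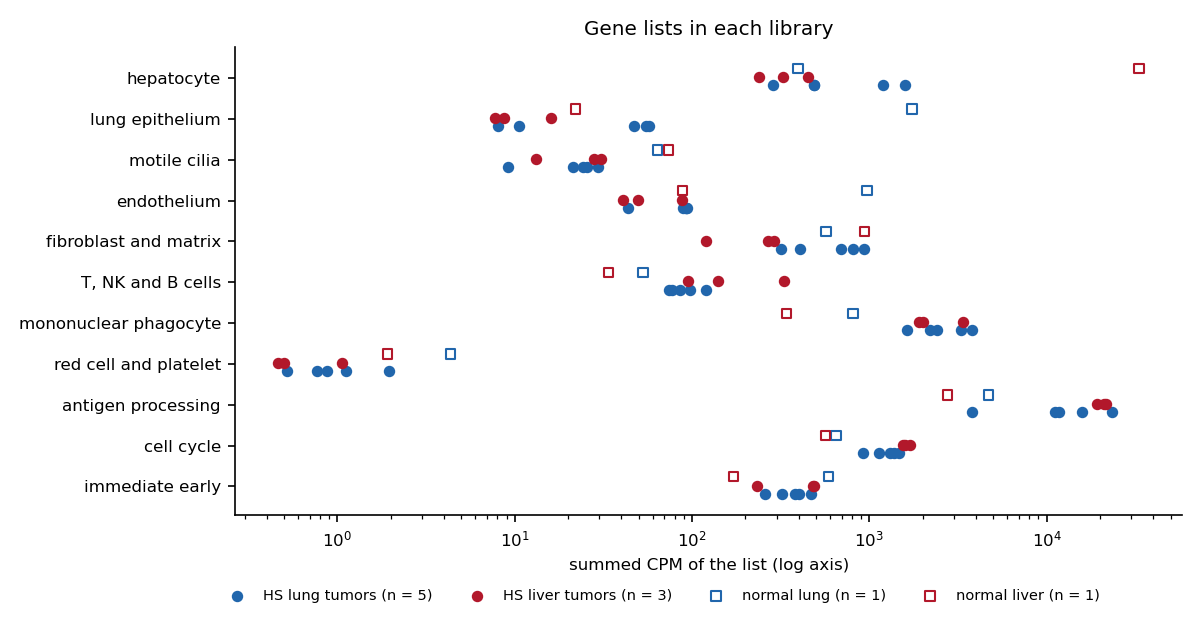
Summed CPM (log axis) of each gene list per library, with filled points for tumors (blue lung, n = 5; red liver, n = 3) and open squares for the normal lung and normal liver. Lung and liver tumors overlap for all lists but the matrix and cell cycle lists. Normal liver has 33178 CPM of the hepatocyte genes against at most 1590 in a tumor (HS27). Without *FBP1*, HS27 has 53.5 CPM and the highest tumor is HS33 at 195, against 32262 in normal liver.

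The HHS tumors of the lung and liver were set beside the HS tumors, gene by gene. Of the 223 genes with all HS lung tumors higher, 53.8% were also higher in the HHS tumor of the lung than in that of the liver, against the 52.3% of all genes that were higher in HS lung tumors. Of the 247 with all HS liver tumors higher, 45.3% had the same direction in the HHS tumors, against 48.5% of all such genes. For genes with an unadjusted p under 0.05 and an absolute log2FC above 1.5, which are 2.1% and 1.36% of all genes in the 2 directions, the shares were 53.6% of 375 on the lung side and 52.5% of 244 on the liver side. Counting only HHS differences of the same direction past 1.5, the shares were 31.2% and 34% of these genes. They were 16% and 14.3% of all genes in those directions, and 22.4% and 13.8% of the genes without overlap. Shares past 1.5 in the opposite direction were not computed, so these shares alone do not show that HHS shares the site differences. Of the genes DESeq2 called, 54.4% of the 79 higher in lung and 26.1% of the 23 higher in liver tumors had the same direction. Each HHS site is 1 library, so these are descriptions with no test. *FKBP5*, a co-chaperone induced by glucocorticoids, was one of the 11 named genes without overlap in HS and kept its order, with 67.8 to 167 CPM in lung and 26.1 to 60.5 in liver tumors, 594 in the HHS tumor of the lung and 35.2 in that of the liver. *RNF5*, a ubiquitin ligase of the endoplasmic reticulum, had 13.7 to 33.8 CPM in lung and 35.7 to 46.2 in liver tumors. It also had the higher value in the HHS tumor of the liver, at 31.1 against 25.1 CPM in that of the lung.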

How the data were processed

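RNA was measured in 8 HS tumors of Bernese Mountain Dogs, 5 of lung and 3 of liver, with 1 normal lung and 1 normal liver of German Shepherd Dogs and 1 HHS tumor of each site. Per the labels and the study's methods, the authors extracted RNA with the mirVANA kit, made stranded total RNA libraries, trimmed reads with cutadapt 3.7, checked them with FastQC 0.11.9, aligned them to CanFam3.1 with STAR 2.7.10a and counted them with HTSeq 2.0.0. DESeq2 1.20 is named for their own comparisons. The annotation release and the strand option of the counting are not given in the sources used here, so overlapping, antisense and near-identical genes may share reads. The deposited table gives raw counts for 32704 Ensembl gene identifiers, neither normalized nor filtered. The cell line counts were not used here.

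Groups followed the labels. From the counts, edgeR 4.0.16 in R 4.3.3 (limma 3.58.1 loaded with it) gave TMM factors, the filterByExpr filter, quasi-likelihood tests of the 8 tumors and Benjamini-Hochberg adjustment over all genes. The SE of a log2FC is its absolute value divided by the square root of the F statistic of that test. The 95% intervals of log2FC use this SE with the t distribution. Both are approximate, most of all for genes with hardly any counts at a site. Levels and fold changes between normal organs are CPM or log2 CPM (prior count 2) with TMM factors over the 24 libraries. In normal liver that factor is 0.342, so its CPM are scaled up, while the other normal libraries have factors of 0.973 to 1.297. Whether normal liver is the control that the study excluded is not stated in its text. DESeq2 1.42.0 without independent filtering was the alternative test, and an adjusted p it gave as NA (548 genes) stayed NA. Other alternatives were other size factors, filters and cutoffs, a robust fit, all 18 tumors in the fit, the HHS tumors added, and each tumor left out. The code was tested on simulated data. Python 3.11.15 with pandas 2.3.3, numpy 2.4.6 and matplotlib 3.10.9 made the tables and plots.

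Names came from the readable part of the study's supplementary tables and cover 1134 identifiers, some of them by a human homolog. No genome annotation was used, so no coordinates or sequences are given. Named are called genes, members of 11 gene lists (143 genes), and, where fewer than 5 named genes were called in a direction, the 5 with the smallest p. The genes without overlap, the DESeq2 calls and those in the closing section were named after their values were seen. The values of 1 list member are not reported here. The members and lists were chosen with earlier results of these data known. Total counts were 124147248 to 171815073, and the counting intervals of ratios and the floor of 3 counts cover counting error only. No 2 of the 8 libraries were duplicates (lowest chi-square per gene 1410 over 28 pairs). Each tumor is labelled as a separate sample, and p-values measure the spread between these samples.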

Additional observations from a re-analysis of the deposited data

Results flagged for a closer look

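Genes without overlap between the HS lung and HS liver tumors were set beside the HHS tumors of the same sites, and 4 named genes had the opposite order there by over 1 on the log2 CPM scale. *RASEF* was higher in all HS liver tumors, and HHS lung minus HHS liver was 11.40, a value that depends on the prior count because the HHS tumor of the liver had no count. *NMBR* was also higher in all HS liver tumors and differed by 1.75 in the HHS tumors, at 0.0318 CPM in lung and 0 in liver, close to the level of 3 counts. *ADAMTS2* and *P4HA2* were higher in all HS lung tumors and differed by -2.20 and -1.41 in the HHS tumors. With 1 HHS library a site the difference between the diagnoses was not tested. No tumor was far from the others by Dixon's test in any of 22 measures of the 5 lung tumors (11 list means and 11 genes), where chance alone flags about 1 in 20 groups, and groups of 3 were not tested.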

How the results depend on the processing

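The count of 0 called genes held under the 9 other edgeR settings (smallest adjusted p 0.619 to 1) and with each tumor left out (0 to 0 calls), while DESeq2 called 102, of which 57 differed the same way between the normal organs, against 0 in edgeR, also with the limit of the organ difference at 1 or 2 or with library size alone. Unadjusted p under 0.05 was found for 299 to 1417 genes under other edgeR settings and 643 to 1024 with a tumor left out. Scaled by library size alone, the liver genes of HS33 were at 0.911% of normal liver and the lung genes of HS35 at 1.93% of normal lung. With a lower limit of 5 CPM the lung genes of HS52 were at 3.61%, a choice made after seeing the data, as were the refits of list medians. With the HHS tumors added, the median log2FC of the antigen processing genes was -1.15 and that of the matrix genes 0.63. Other list medians moved by more than the spread between tumors only when a tumor was left out or, for red cell and platelet genes, could not be fitted at 1 CPM in 3 libraries; the causes were not tested. Reads carry no molecular identifiers, and levels near 3 counts are not resolved. No paired analysis was made because the labels used here do not link any lung tumor to a liver tumor of the same dog.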

Other observations

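Of 974 named genes tested, 33 (3.39%) had an unadjusted edgeR p under 0.05 between the sites, and some followed a subset of tumors that the report does not describe. They were picked after their values were seen, and none passed adjustment (edgeR adjusted p = 1 for each). *NDUFA4L2*, a hypoxia-inducible mitochondrial protein, had 219 CPM in HS27, 109 in HS35 and 206 in HS52, while HS47, HS48 and the 3 liver tumors had 2.4 to 10.4. *PLXNB2*, a semaphorin receptor, had 211 CPM in HS27, 140 in HS35 and 251 in HS52, beside 51.1 and 47.3 in HS47 and HS48 and 30 to 71.7 in the liver tumors. The same 3 lung tumors were high for both genes, and the other 2 lung tumors lay within or below the range of the liver tumors. *HEBP2*, a heme-binding protein, had 38.9, 66.5 and 20.8 CPM in HS33, HS36 and HS50 and 3.96 to 28.2 in the lung tumors. *DEPTOR*, an inhibitor of mTOR, had 2.29 to 11 CPM in lung and 0.718 to 2.39 in liver tumors, and *MTSS1*, an actin regulator, 49.3 to 133 and 26.2 to 61.3 CPM.

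Among all 18 tumors, HS35, HS47, HS52 and HS33 had a tumor of their own site and diagnosis as nearest over the most variable genes. HS27 was nearest to the HHS tumor of a lymph node (distance 82), HS36 and HS48 to a thorax tumor (86.4 and 89.6), and HS50 to the HHS tumor of the liver (81.5).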
